A study of Mus musculus with 8 samples.

Results

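The genes described here mark B and T lymphocytes in the inguinal mammary gland of mice, followed after a dose of 17β-estradiol (E2), the main circulating estrogen. They were chosen by symbol from a list of 33 known lymphocyte genes, 16 of B cells and 17 of T cells, and not by their values. Of these, 32 had a probe set (a group of short oligonucleotides that reads 1 transcript) with that symbol alone, out of 18193 genes measured. These were all 16 B genes and 16 of the 17 T genes, and Lck was not analysed here. Faim3, the older symbol of a B gene on the list, is given under its current name Fcmr. Each gene was read from its brightest probe set, that is, by mean level across the 8 arrays. A level filter at the 40th percentile of all genes kept 15 B genes and 15 T genes for testing, 30 in all, with Pax5 and Cd27 below it.

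The mice were virgin, 12 to 13 weeks old per the labels, and gonadectomized (GDX), so that every group, controls included, lacked the gonads as its source of estrogen. Vehicle groups gave 2 arrays, both titled 24 h, and E2 groups gave 1 array each for 6 times after a subcutaneous injection: 1, 3 and 6 h, then 12, 18 and 24 h. The sample titles carry these times, whereas every description reads 24 h, and the sources used here do not settle this. The labelled dose has a conflicting unit and is not stated. Strain, genotype, and whether a lymph node was removed are not given in the sources used here, nor is whether an array held RNA of 1 mouse or of several, although the labels speak of tissue collected from all mice of a group. Each p-value measures only the spread of arrays within a group. Where E2 arrays of neighbouring times are grouped, that spread also holds differences between times. Nothing says that the 2 vehicle arrays are separate animals, so the spread between them may be technical.

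The inguinal fat pad of the mouse contains a lymph node, and lymphocytes also lie scattered between the ducts. In a lymph node, naive B cells fill follicles and naive T cells fill the zone around them, and both populations enter from blood and leave through lymph. B cells recognise antigen with a membrane immunoglobulin coupled to the Cd79a and Cd79b chains. T cells recognise it with a receptor coupled to CD3 chains, helped by Cd4 or by Cd8.

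Values are log2 of the deposited intensity, and a difference is a log2 difference from the mean of the 2 vehicle arrays unless another reference is named. The B genes averaged -0.14 on the first vehicle array and 0.14 on the second, 0.12, 0.10, -0.14 and 0.11 on the 1, 3, 6 and 12 h arrays, and -0.40 and -0.39 on the 18 h and 24 h arrays. The T genes averaged -0.10 and 0.10 on the vehicle arrays, 0.05, 0.05, -0.10 and 0.04 on the 1, 3, 6 and 12 h arrays, and -0.31 and -0.23 on the 18 h and 24 h arrays. Both averages were thus lowest on the 18 h and 24 h arrays, and the 6 h array matched the lower vehicle array rather than its neighbours in time. In bulk tissue, fewer lymphocytes and less RNA per lymphocyte cannot be told apart. Over all genes tested, the median difference was -0.02 at 18 h and -0.02 at 24 h. The SD between the 2 vehicle arrays was 0.191 for the B average and 0.136 for the T average.

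**Figure D1:**
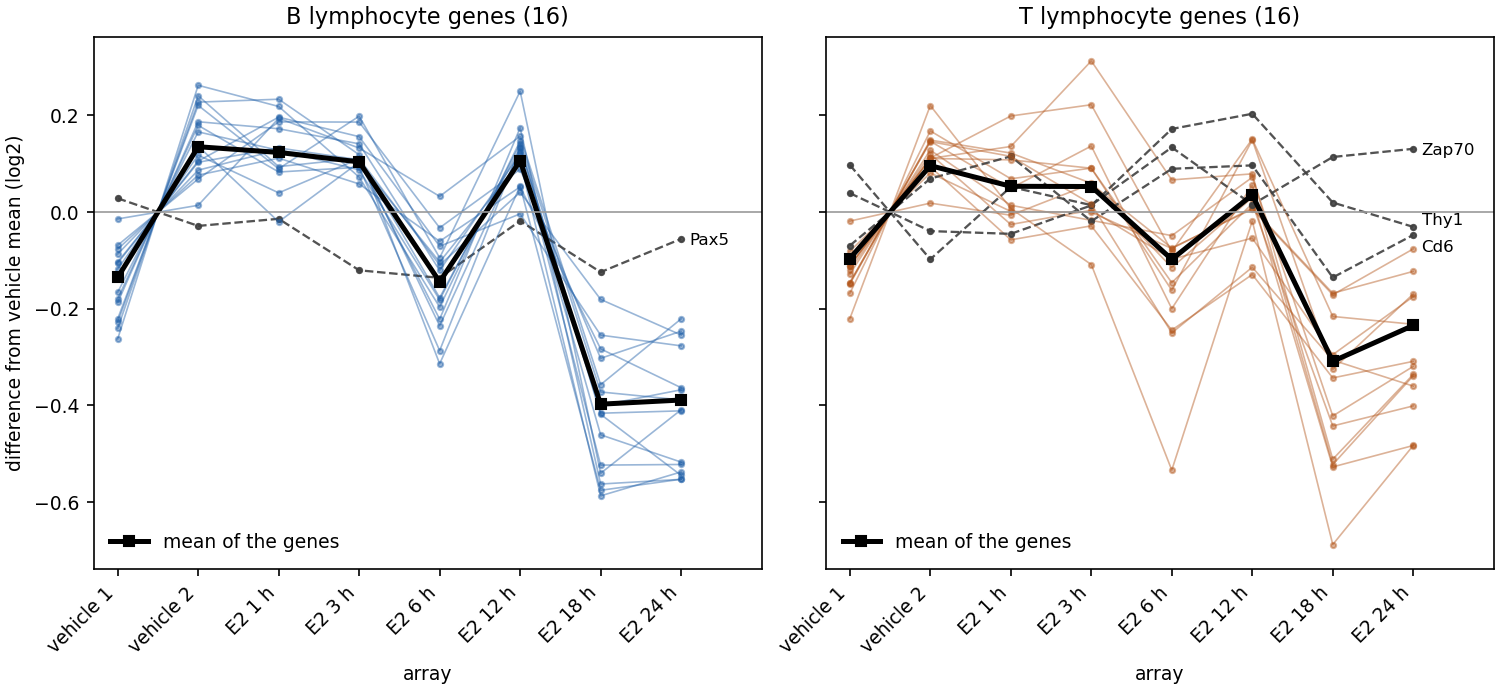
Log2 difference of each gene from the vehicle mean on the 8 arrays, which are spaced evenly and not by hours, with B genes on the left and T genes on the right. Thin lines are genes and the thick line is their mean, which reaches -0.40 for B and -0.31 for T at 18 h.

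At 18 h, 16 of 16 B genes and 14 of 16 T genes lay below both vehicle arrays, as did 44.2% of all 10916 genes tested, and 0 and 1 lay above both (27.2%). At 24 h the counts were 16 of 16 and 13 of 16, against 46.4% of all genes, with 0 and 1 above both (29.0%). For both times at once they were 16 of 16 B genes and 13 of 16 T genes, against 34.3% of all genes, and the T genes outside the count were Cd6, Zap70 and Thy1. The 18 h and 24 h arrays were the lowest of the 8 for 15 B genes and 12 T genes, against 20.5% of all genes. All 6 comparisons with vehicle share the same 2 vehicle arrays, and 1 array stood for each time, so none of these counts has a replicate check. A gap of at least 1.25-fold below each vehicle array at both 18 h and 24 h was found for Cd79a, Fcer2a, Bank1 and Pou2af1 among B genes, for Cd3g among T genes, and for 0.247% of all genes.

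The earlier arrays did not share this order. At 1 h, 0 B genes and 1 T gene lay below both vehicle arrays (22.1% of all genes), and 7 B genes and 3 T genes lay above both (39.7%). The 3 h counts were 1 B gene and 0 T genes below (28.6%), with 5 and 3 above (35.0%). At 12 h, 0 B genes and 1 T gene lay below (25.2%), with 6 and 4 above (37.9%). The 6 h array differed from its neighbours, with 6 B genes and 6 T genes below both vehicle arrays (30.3%) and 1 and 3 above (38.6%). All 16 B genes and 13 of 16 T genes were lower at 6 h than at 3 h and 12 h, an order seen in 34.3% of all genes.

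The antigen receptor chain Cd79a carries the signal of membrane immunoglobulin into the B cell. Its log2 level was 10.77 and 11.10 on the vehicle arrays, 11.06, 11.04, 10.72 and 11.11 at 1, 3, 6 and 12 h, and 10.37 and 10.38 at 18 h and 24 h. The 18 h and 24 h levels were below those of all other arrays, at 0.677 and 0.682 of the vehicle mean, while 12 h was the highest array. Its partner Cd79b read 9.90 and 10.34 on the vehicle arrays, 10.21, 10.32, 10.02 and 10.37 at 1, 3, 6 and 12 h, and 9.58 and 9.71 at 18 h and 24 h. Ms4a1, which encodes the surface protein CD20, read 10.71 and 11.08 on the vehicle arrays, 11.07, 11.04, 10.77 and 11.01 at 1, 3, 6 and 12 h, and 10.43 and 10.38 at 18 h and 24 h. In all 3 genes the vehicle arrays themselves were apart, by between 0.33 and 0.44, and the 6 h level lay near the lower of them.

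Next to the receptor act kinases and adaptors that pass its signal on. Blnk, the adaptor that links the receptor to downstream enzymes, read 9.60 and 9.81 on the vehicle arrays, 9.90, 9.86, 9.63 and 9.70 at 1, 3, 6 and 12 h, and 9.45 and 9.43 at 18 h and 24 h. Blk, a Src-family kinase of B cells, was -0.30 at 18 h and -0.25 at 24 h. Bank1, a scaffold protein of the same pathway, was -0.42 and -0.41 at these times. All 3 genes were lower at both times than on every other array.

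Among the receptors that tune the antigen response, Fcer2a, the low-affinity IgE receptor CD23 of mature B cells, had the largest B difference at 18 h. It read 10.05 and 10.32 on the vehicle arrays, 10.16, 10.29, 10.08 and 10.29 at 1, 3, 6 and 12 h, and 9.60 and 9.65 at 18 h and 24 h. Cr2, the complement receptor CD21, had differences of -0.42 at 18 h and -0.54 at 24 h. Fcmr, the receptor for IgM, had differences of -0.52 and -0.52, but its vehicle arrays were 0.48 apart. The inhibitory receptor Cd22 showed -0.40 and -0.37, and Cd72, another inhibitory receptor, showed -0.18 and -0.25. For Fcrla, an intracellular Fc receptor-like protein, the vehicle arrays were only 0.03 apart, and its differences were -0.36 and -0.22. That held for its brightest probe set only. The second brightest, also above the filter, had vehicle arrays 0.24 apart and differences of -0.08 and -0.17. It was not below both vehicle arrays at 18 h. Cd37, a tetraspanin of mature B cells, had differences of -0.28 and -0.36.

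The transcription regulators differed among themselves. Pou2af1, the coactivator that octamer-binding factors use in B cells, read 9.81 and 10.27 on the vehicle arrays, 10.27, 10.16, 9.72 and 10.09 at 1, 3, 6 and 12 h, and 9.46 and 9.49 at 18 h and 24 h. It had the widest span of any B gene, 1.75-fold between its highest and lowest array. Spib, an Ets-family factor of B cells, was -0.37 at 18 h and -0.39 at 24 h, but its vehicle arrays were 0.52 apart. Pax5, the factor that maintains B cell identity, was the flattest B gene. Its level lay between 7.04 and 7.20 on all 8 arrays, below the filter. Its Pearson r with the average of the other B genes was 0.31, where every other B gene had 0.90 or more by the same measure.

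The promoters of a few of these genes are shown as examples, and likeness across the arrays does not single them out. RefSeq windows upstream of the annotated start, on build GRCm38.p6, were given for 22 of the 32 genes, 26 windows in all because Fcer2a and Zap70 have 3 each. The octamer ATGCAAAT, a site of POU factors in many B cell promoters, and the Ets core AGGAAG, a site of factors such as Spib, were searched on both strands, and neither can overlap the other. The Ets core was picked after the values had been seen. In capitals below are the matches on either strand in the 250 bases before the start of Cd79a (chr7:24897247-24897496, plus strand) and of Blnk (chr19:40994222-40994471, minus strand), each written 5′ to 3′ on its gene's strand.
Cd79a: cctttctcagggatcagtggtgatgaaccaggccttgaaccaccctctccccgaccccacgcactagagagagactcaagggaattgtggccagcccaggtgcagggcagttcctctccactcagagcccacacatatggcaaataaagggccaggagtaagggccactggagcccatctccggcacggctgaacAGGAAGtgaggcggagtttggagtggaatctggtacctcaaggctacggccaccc
Blnk: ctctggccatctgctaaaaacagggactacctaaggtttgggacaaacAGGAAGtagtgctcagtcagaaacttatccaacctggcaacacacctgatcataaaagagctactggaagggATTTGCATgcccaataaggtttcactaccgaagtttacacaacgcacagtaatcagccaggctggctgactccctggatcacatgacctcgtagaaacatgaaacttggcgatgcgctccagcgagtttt
The Ets core began 55 bases before the annotated start in Cd79a and 202 bases before it in Blnk. Blnk also held the octamer, 130 bases before the start, and was the only one of the 22 genes with it, against 1.81% of 27025 RefSeq genes with at least 1 window of the same length. The Ets core was in at least 1 window of 12 of the 22 genes, 6 of 13 B genes and 6 of 9 T genes, against 32.3% of those RefSeq genes. Counted by window, it was in 14 of 26, against 29.5% of 32851 windows. The windows of Cd22, Fcmr and Pou2af1 held neither motif. These 3 genes had an r of 0.99, 0.99 and 0.98 with the average of the other B genes, where Blnk had 0.94. A match is a description of the sequence and says nothing of binding.

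The CD3 chains couple the T cell receptor to its signal. Cd3g read 8.56 and 8.86 on the vehicle arrays, 8.83, 8.77, 8.59 and 8.74 at 1, 3, 6 and 12 h, and 8.18 and 8.23 at 18 h and 24 h. Cd3d read 9.79 and 10.13 on the vehicle arrays, 10.03, 10.05, 9.82 and 9.98 at 1, 3, 6 and 12 h, and 9.52 and 9.56 at 18 h and 24 h. Both chains were lowest at 18 h and 24 h, at 0.694 and 0.716 of the vehicle mean for Cd3g and 0.736 and 0.757 for Cd3d. Cd3e, the remaining CD3 gene on the list, spanned only 9.75 to 9.98 over the 8 arrays, with differences of -0.17 at 18 h and -0.08 at 24 h. Cd3g and Cd3d are transcribed away from each other from annotated starts 1355 bases apart, while the starts of Cd3d and Cd3e are 27825 bases apart. The windows of this divergent gene pair are shown for that reason, Cd3d at chr9:44981536-44981785 on the plus strand and Cd3g at chr9:44980432-44980681 on the minus strand, with capitals as above.
Cd3d: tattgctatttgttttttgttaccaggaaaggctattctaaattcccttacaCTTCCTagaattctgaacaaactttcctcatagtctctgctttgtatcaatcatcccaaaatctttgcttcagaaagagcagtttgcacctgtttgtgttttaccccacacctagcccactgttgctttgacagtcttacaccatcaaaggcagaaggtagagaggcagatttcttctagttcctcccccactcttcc
Cd3g: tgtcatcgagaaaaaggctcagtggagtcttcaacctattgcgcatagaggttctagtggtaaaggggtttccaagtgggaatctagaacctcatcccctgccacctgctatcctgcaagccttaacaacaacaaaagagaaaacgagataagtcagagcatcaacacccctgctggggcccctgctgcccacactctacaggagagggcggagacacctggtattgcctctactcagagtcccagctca
The Ets core of Cd3d lies on the opposite strand, 198 bases before the start, and neither motif was found in the Cd3g window.

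The coreceptors bind the MHC molecules that present antigen, Cd4 to class II and the Cd8a and Cd8b1 chains to class I. Cd8b1 read 9.49 and 9.78 on the vehicle arrays, 9.68, 9.77, 9.43 and 9.69 at 1, 3, 6 and 12 h, and 9.11 and 9.29 at 18 h and 24 h. Cd8a, the other chain of the same receptor, had differences of -0.33 and -0.17. Cd4 spanned less, from 9.08 at 18 h to 9.33 on the second vehicle array, with differences of -0.17 and -0.12. All 3 coreceptor genes were below both vehicle arrays at both times.

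Surface molecules of adhesion and costimulation were mixed. Cd2, an adhesion receptor, read 7.90 and 8.13 on the vehicle arrays, 8.15, 8.33, 8.08 and 8.09 at 1, 3, 6 and 12 h, and 7.50 and 7.68 at 18 h and 24 h. Cd5, a negative regulator of receptor signals, had differences of -0.42 and -0.32, whereas its relative Cd6 had -0.14 and -0.05. Cd28, the main costimulatory receptor, read 8.29 and 8.47 on the vehicle arrays, 8.32, 8.35 and 8.14 at 1, 3 and 6 h, and 8.25, 8.04 and 8.07 at 12, 18 and 24 h. It was the only lymphocyte gene with all 3 late arrays below both vehicle arrays, a pattern of 13.3% of all genes tested. Icos, a costimulator of activated T cells, had differences of -0.22 and -0.23. Il7r, the receptor for the survival cytokine of naive T cells, had -0.31 and -0.36. Cd27, a costimulator of the TNF receptor family, lay near or below the filter, at 7.51 and 7.95 on the vehicle arrays, 7.74, 7.62, 7.20 and 7.71 at 1, 3, 6 and 12 h, and 7.04 and 7.25 at 18 h and 24 h.

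Zap70 and Thy1 did not follow the other T genes. Zap70, the kinase that binds phosphorylated CD3 chains, read 9.38 and 9.18 on the vehicle arrays, 9.33, 9.29, 9.41 and 9.30 at 1, 3, 6 and 12 h, and 9.39 and 9.41 at 18 h and 24 h. The second vehicle array was its lowest, and its r with the average of the other T genes was -0.80. Thy1, a surface glycoprotein of mouse T cells that fibroblasts and nerves also make, stayed between 11.30 and 11.55 on all arrays, with an r of -0.01. Lat, the adaptor that Zap70 phosphorylates, followed the majority, with differences of -0.29 at 18 h and -0.17 at 24 h.

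For 12 genes, 18 further probe sets were on the array. Of these, 11 lay below both vehicle arrays at 18 h and 13 at 24 h, beside 44.2% and 46.4% of all genes tested, and 4 of the 18 were below the level filter. The probe sets of Zap70 disagreed. The brightest, described above, had differences of 0.11 at 18 h and 0.13 at 24 h, and the second had 0.09 and 0.16, while the dimmest had -0.21 and -0.13. That dimmest probe set had an r of -0.76 with the brightest. Cd8a had 2 dimmer probe sets at 0.11 and 0.10 at 18 h, opposite to its brightest. The second probe set of Pax5 had differences of 0.03 and 0.00, with an r of -0.18 with the brightest, and the dimmest of Fcrla had 0.08 and -0.07, with an r of -0.52. In Icos, by contrast, all 3 probe sets were below both vehicle arrays at 18 h and 24 h, although the second had an r of only 0.57 with the brightest. The further probe sets of Ms4a1, Cd22, Fcer2a, Cd37, Cd28 and Il7r were also below both vehicle arrays at both times. Their r with the brightest lay between 0.85 and 0.98.

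**Figure D2:**
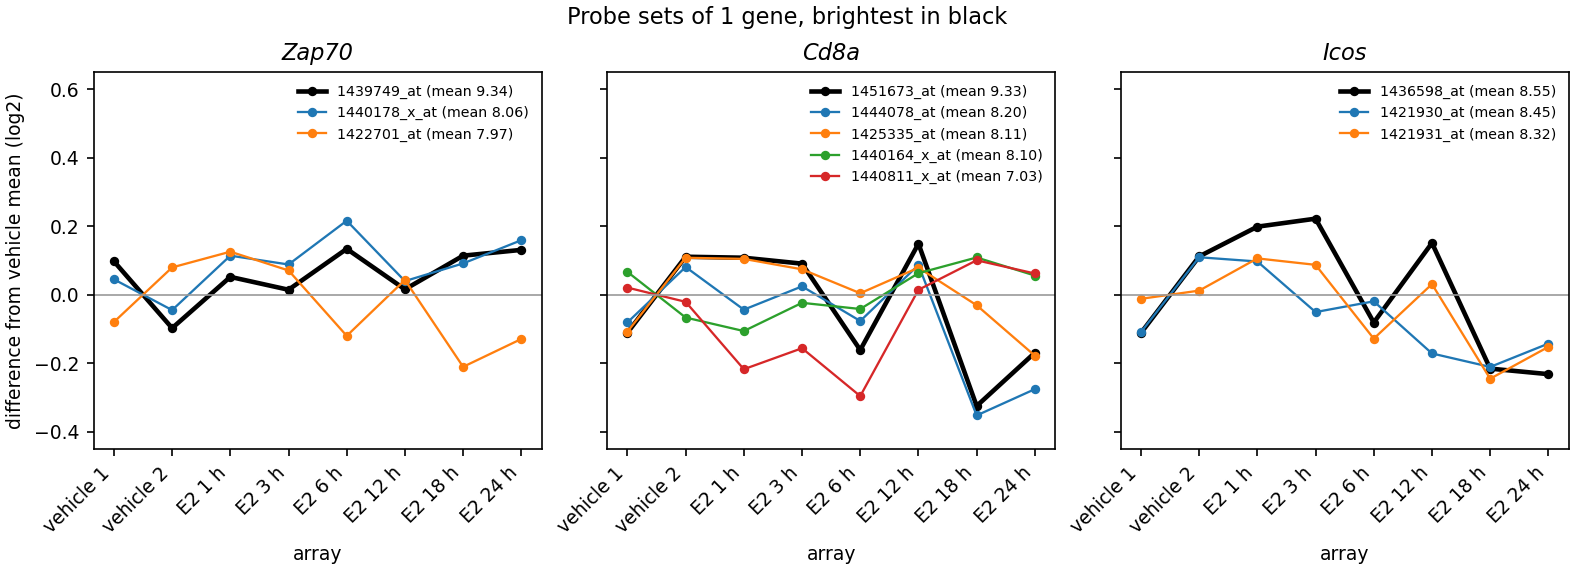
Log2 difference from the vehicle mean on the 8 arrays for every probe set of Zap70, Cd8a and Icos, with the brightest in black. At 18 h and 24 h the probe sets of Zap70 and of Cd8a lie on both sides of 0, and those of Icos lie below it.

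The B and T averages were then set side by side on each array. The B average minus the T average was -0.04 and 0.04 on the vehicle arrays, 0.07, 0.05, -0.05 and 0.07 on the 1, 3, 6 and 12 h arrays, and -0.09 and -0.15 on the 18 h and 24 h arrays. B and T averages were thus high and low on the same arrays, with the T average moving over a smaller range. Over the 8 arrays Pearson's r between them was 0.99 and Spearman's rho 0.98, with a slope of 0.65 for T on B. Without the 18 h and 24 h arrays, r was 0.98 over 6 arrays. The vehicle arrays took part in this, since 15 of 16 B genes and 14 of 16 T genes were lower on the first vehicle array than on the second, against 52.2% of all genes. The exceptions were Pax5, Zap70 and Thy1. The points share the arrays and their normalization, so these correlations are given as a description.

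**Figure D3:**
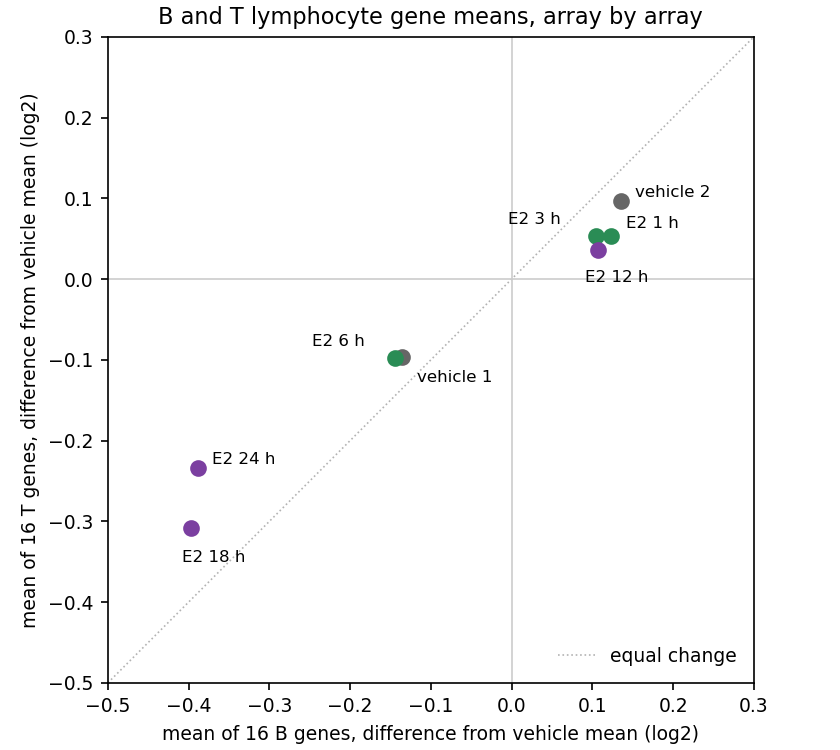
Mean log2 difference of the 16 T genes against that of the 16 B genes, 1 labelled point for each of the 8 arrays. The 18 h and 24 h arrays lie at the lower left, and the first vehicle array lies beside the 6 h array.

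Between single genes, the median r over the 8 arrays was 0.95 for 120 pairs of B genes, 0.86 for 120 pairs of T genes and 0.89 for 256 pairs of a B gene with a T gene. All 120 B pairs were above 0, and 99 of the T pairs and 235 of the mixed pairs were. The lower end of the T and mixed pairs, at -0.90 and -0.86, differed from the lowest B pair at 0.16. Zap70 and Thy1 stood apart, at -0.80 and -0.01 with the average of the other T genes. Every other T gene had 0.73 or more, and the probe sets of Zap70 disagreed, as given above. The genes outside the list closest to the B average were Ikzf3, a lymphoid zinc finger factor (r 0.99), Gimap6, Gimap5, Ighv14-2, Rbm25, Prkcb, Serpinb1a, Kat6a, Arid1a and Btla. Those closest to the T average were Cstf2, Trbv1, Btla, Gpr18, Ltb, Napsa, Ikzf3, Ccr7, Arid1a and Gimap5. Each of these had an r between 0.98 and 0.99 over 8 arrays, and Btla, an inhibitory receptor of lymphocytes, had differences of -0.60 at 18 h and -0.56 at 24 h.

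To ask whether the late levels differed from vehicle beyond the spread, 12, 18 and 24 h formed a late window of 3 arrays and 1, 3 and 6 h an early window of 3 arrays, fitted together with vehicle in limma. All 15 B genes tested were lower in the late window than in vehicle, with a median difference of -0.23, and 13 of 15 T genes were, with a median of -0.17, against -0.01 over all genes tested. The size depended on single arrays. The B median was -0.45 without the first vehicle array and -0.10 without the second, -0.41 without 12 h, -0.14 without 18 h and -0.14 without 24 h. The T median was -0.29 without the first vehicle array, -0.06 without the second and -0.11 without 18 h. None of them passed an adjusted p of 0.05 (Benjamini-Hochberg over 10916 genes), and 0 genes of any kind did (0.0%). Within the late window, the 12 h averages lay with those of 1 h and 3 h, which widened the spread. Fcer2a averaged 9.85 ± 0.39 (SD, n = 3) in the late window and 10.18 ± 0.19 (SD, n = 2) in vehicle, a difference of -0.34 ± 0.18 (SE) with a limma adjusted p of 0.648. Cd3g averaged 8.38 ± 0.31 (SD, n = 3) against 8.71 ± 0.21 (SD, n = 2), a difference of -0.33 ± 0.16 (SE) with a limma adjusted p of 0.648. Cd28 had the smallest adjusted p of the 30, 0.634 by limma, and was the only gene among them with an unadjusted p below 0.05, where 4.8% of all genes were lower at that level and 2.8% higher.

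**Figure D4:**
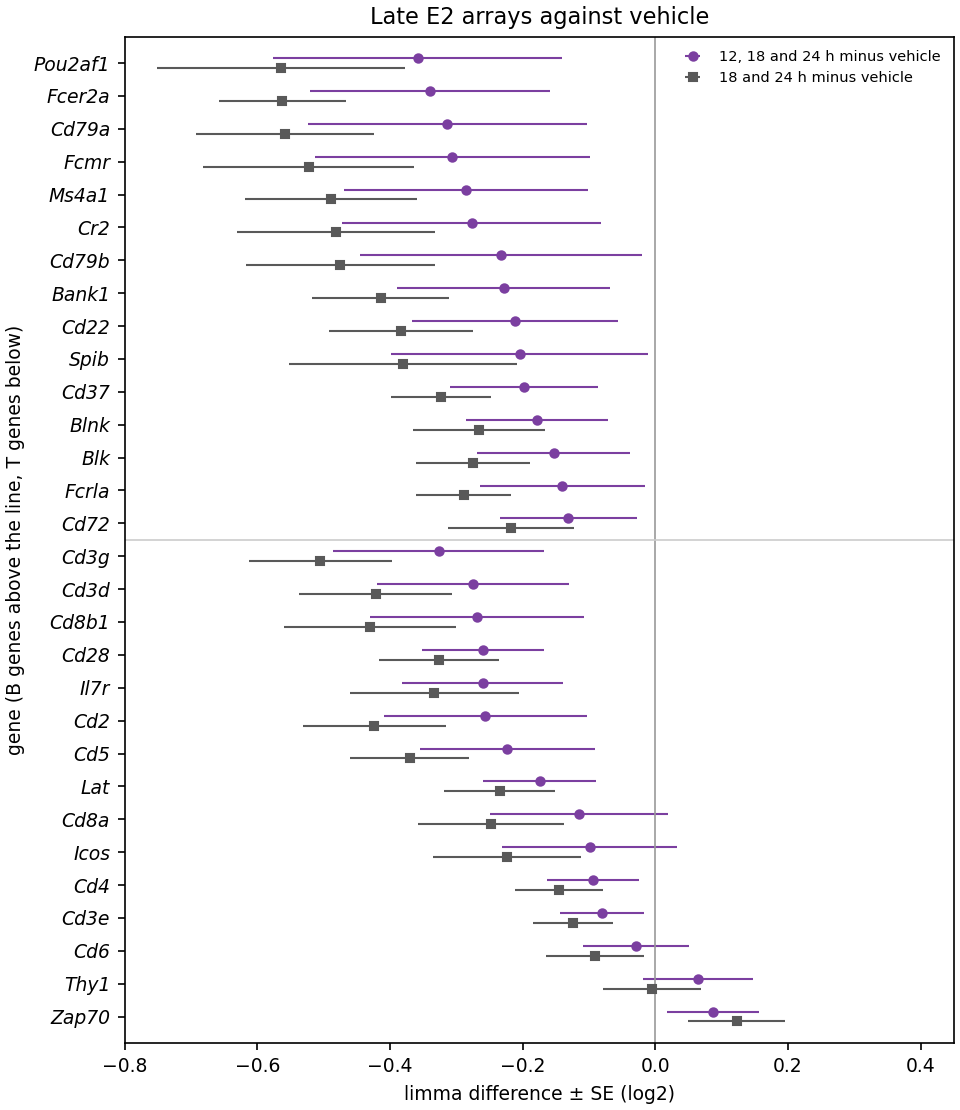
Differences from vehicle with their SE from limma for the 15 B genes and 15 T genes tested, on the log2 scale, for the late window of 12, 18 and 24 h (circles) and for 18 and 24 h alone (squares). Zap70 lies above 0 in both fits, and every B gene lies below 0 in both.

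With 12 h as a level of its own and 18 h and 24 h as the late window, the median difference from vehicle was -0.41 for the 15 B genes and -0.25 for the 15 T genes. This fit still called 0 genes (0.0%), and the smallest limma adjusted p among the lymphocyte genes was 0.293. At an unadjusted p below 0.05, 13 of 15 B genes and 8 of 15 T genes were lower, against 10.3% of all genes. With 12 h kept in the late window, 0 B genes and 1 T gene were. The split of 12 h from 18 h and 24 h was chosen with earlier results of these data known and follows the order of the arrays described above. The counts are therefore no separate support for that order, and genes that go together across arrays are not independent of each other. Cd79a had a difference of -0.56 ± 0.13 (SE) and Cd3g one of -0.50 ± 0.11 (SE).

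Early against vehicle, the medians were 0.02 for B genes and 0.00 for T genes, against 0.01 for all genes. Without the first vehicle array they were -0.12 and -0.11, and without the second 0.17 and 0.11. No lymphocyte gene was called, nor any other gene (0.0%), and at an unadjusted p below 0.05 there were 0 of the 30, against 3.64% of all genes higher and 1.74% lower. Late against early, 60 genes of 10916 were called (0.55%) and 0 of the 30 lymphocyte genes were among them. The medians in that comparison were -0.27 for B genes and -0.15 for T genes, against -0.03 for all genes, and without 12 h they were -0.43 and -0.26. At an unadjusted p below 0.05, 4 B genes and 2 T genes were lower, against 13.6% of all genes, and 0 were higher, against 5.5%. Blnk differed by -0.27 ± 0.10 (SE) with a limma adjusted p of 0.191, and Cd2 by -0.43 ± 0.14 (SE) with a limma adjusted p of 0.162.

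Whole-array values were even, with median intensities between 173.9 and 180.5, but markers of another tissue differed between arrays. The mean of 16 skeletal muscle genes was 0.22 and -0.22 on the vehicle arrays, 0.65, 0.52 and 1.45 on the 1, 3 and 6 h arrays, and 0.20, 0.67 and 1.15 on the 12, 18 and 24 h arrays. Their summed intensity was 13529 and 10219 on the vehicle arrays, between 19101 and 29119 in the early window and between 13875 and 23623 in the late window, and none was at 0. Muscle and B averages had an r of -0.57 and a rho of -0.74 over the 8 arrays. With the average of the 14 muscle genes above the level filter as a covariate, early against vehicle called Cr2 and Icos as higher, with 0.101% of all genes. In the late comparison with vehicle, 27 of the 30 lymphocyte genes changed sign under this covariate and 0 were called. In the same fit, late against early called 15 of 15 B genes and 8 of 15 T genes as lower, where 7.86% of all genes were. All 14 muscle genes tested were higher than vehicle in both windows, with medians of 0.94 early and 0.69 late. The muscle average was also highest at 6 h, where the lymphocyte averages were low. The covariate thus differed with the groups themselves, so this fit cannot separate muscle content from window, and its calls are given as description. Array weights, which gave the 18 h array a weight of 5.18 and the 12 h array 0.42, called 13 B genes and 9 T genes as lower late against early, with 15.5% of all genes.

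Other genes of lymphocytes and of lymph nodes were read from fixed lists, in the same late comparison with vehicle, in which 0 genes of any list were called. Of the B antigen receptor signalling genes, 16 of 20 tested were lower, with a median of -0.07. Ptpn6, the phosphatase recruited by Cd22 and Cd72, was -0.39 at 18 h and -0.31 at 24 h, and Prkcb, the protein kinase C of this pathway, was -0.29 and -0.33. Of the T antigen receptor signalling genes, 14 of 16 tested were lower, with a median of -0.12. Cd247, the zeta chain that accompanies CD3, was -0.48 and -0.34, and Rasgrp1, an activator of Ras in T cells, was -0.51 and -0.44. These lists had 13 of 20 and 18 of 25 genes below both vehicle arrays at both 18 h and 24 h, against the 34.3% of all genes given above.

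Genes of naive lymphocytes and their traffic gave 14 of 14 tested lower, with a median of -0.16. Ccr7, the chemokine receptor that brings lymphocytes into nodes, was -0.46 at 18 h and -0.42 at 24 h, and Itgal, a chain of the integrin LFA-1, was -0.51 and -0.35. Among lymphoid transcription regulators, 14 of 16 tested were lower, with a median of -0.12. Bcl11b, a factor of T cell identity, was -0.62 and -0.52, and Ikzf1, the Ikaros factor of lymphoid cells, was -0.33 and -0.34. Class II antigen presentation genes gave 9 of 9 tested lower, with a median of -0.16, and H2-Ob, which B cells use to regulate peptide loading, was -0.57 and -0.64.

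Genes shared by most leukocytes gave 10 of 10 tested lower, with a median of -0.19, and all 10 lay below both vehicle arrays at 18 h and 24 h. Coro1a, an actin regulator of leukocytes, was -0.36 and -0.33. Macrophage and monocyte genes gave 15 of 16 lower, but with a median of -0.06, and 5 of 16 lay below both vehicle arrays at both times, near the 34.3% of all genes. The average of the 16 macrophage genes was -0.09 at 18 h and -0.01 at 24 h, and at 6 h, where the lymphocyte averages were low, it was 0.13. Plasma cell genes gave 7 of 10 lower, with a median of -0.06, and 5 of 11 below both vehicle arrays at both times, against the same 34.3%. Lymph node stroma and vessel genes gave 4 of 7 lower and 3 higher, with a median of -0.02. Of the 13 on the array, 6 lay below both vehicle arrays at both times, against the same 34.3%. Ltb, a lymphotoxin that lymphocytes themselves make, was -0.58 and -0.51, whereas Lyve1 was 0.27 and -0.19 and Ltbr 0.05 and 0.08. Luminal epithelial genes lay the other way, with 10 of 12 higher and a median of 0.23, and late against early called the keratin Krt8 and the claudin Cldn3. The difference between these lists was not tested.

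**Figure D5:**
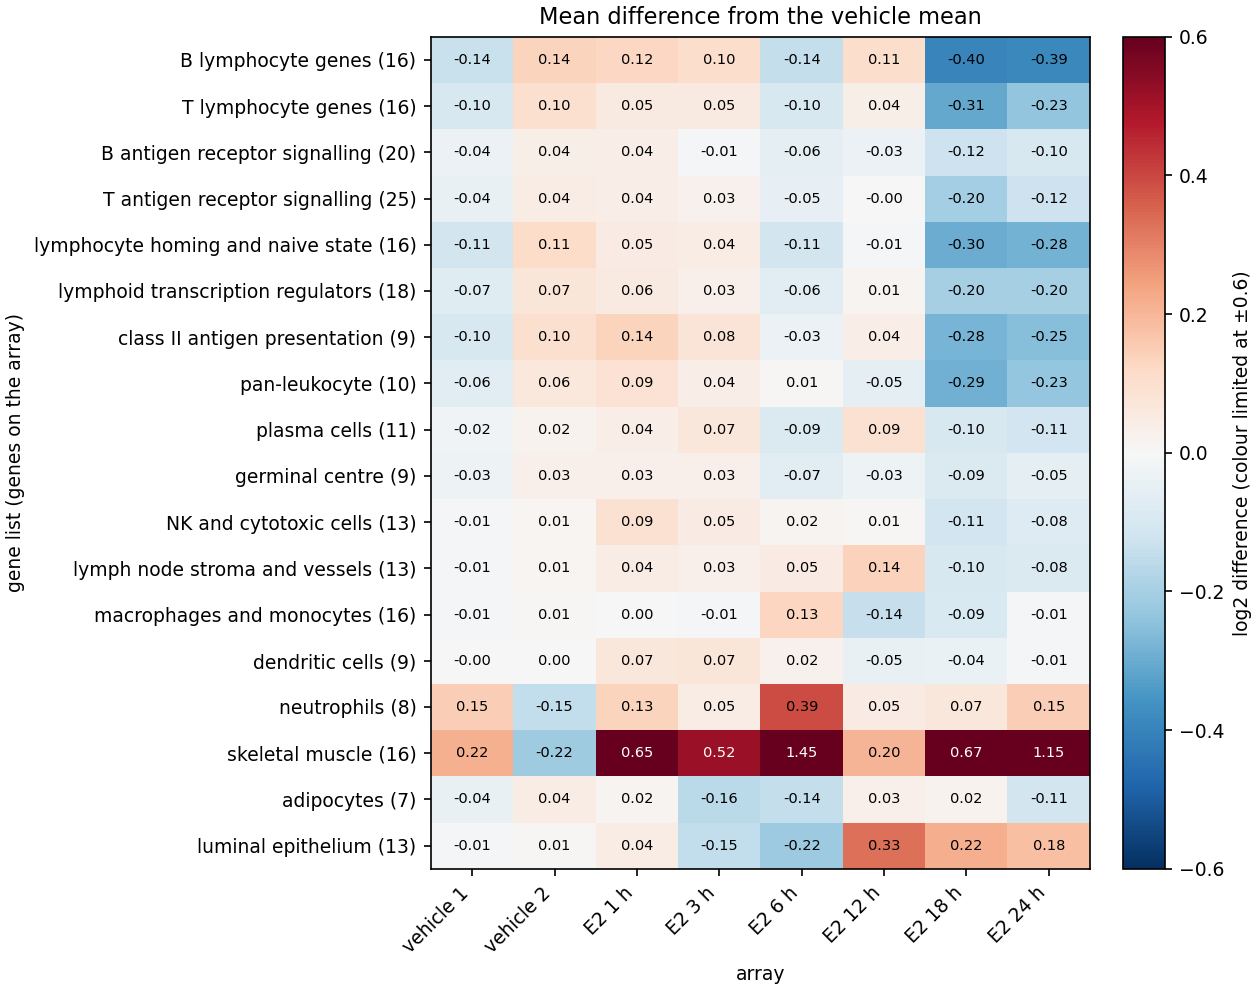
Mean log2 difference from the vehicle mean for each gene list (rows, with the number of genes) on each of the 8 arrays (columns), as colour that is limited at 0.6 to either side. The B and T rows are lowest at 18 h and 24 h, and the skeletal muscle row is highest at 6 h.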

How the data were processed

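RNA from inguinal mammary gland tissue was hybridised as biotin-labelled cRNA to 8 one-colour Affymetrix arrays, per the labels. GCOS 1.0 and RMA are named in the submitters' processing notes, with no roles. The deposited intensity values of 45101 probe sets are linear. They were taken as already normalized because their array medians are even, although even medians do not show which method was used. For that reason log2 was taken with no further normalization. Gene symbols came from the platform annotation, checked against RefSeq by Entrez identifier. The number of arrays limits the precision.

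Genes whose mean reached the 40th percentile (log2 level 7.72, intensity 211) were tested, 10916 in all. limma 3.58.1 in R 4.3.3 fitted 3 windows with 5 residual degrees of freedom and a mean-variance trend; tests were two-sided, with Benjamini-Hochberg adjustment, and a gene was called at an adjusted p below 0.05. Tests were checked on simulated data with independent noise set below the spread of the arrays and with changes larger than those of the lymphocyte genes. That check does not show how the tests perform at differences as small as those here. Single times, lists and correlations were described without a test. Named genes were all lymphocyte genes of the list, up to 4 per other list with the largest late difference from vehicle, and the 10 most alike per average. Clone and model names were passed over among the most alike. The genes, lists, windows and alternatives were chosen with earlier results of these data known. A planned search for signalling motifs in proteins was not run.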

Additional observations from a re-analysis of the deposited data

How the results depend on the processing

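No paired analysis was possible because the vehicle group has replicates 1 and 2 while each E2 time has 1 array, so the groups share fewer than 2 replicate numbers. Across the alternatives that kept both vehicle arrays, the B average lay between -0.42 and -0.36 at 18 h and between -0.42 and -0.34 at 24 h, and the T average between -0.33 and -0.27 and between -0.26 and -0.20. Against a single vehicle array in turn, the B average ranged from -0.53 to -0.26 at 18 h and from -0.52 to -0.25 at 24 h, and the T average from -0.40 to -0.21 and from -0.33 to -0.14. At 1, 3 and 12 h the averages took both signs, for B from -0.01 to 0.26, from -0.03 to 0.24 and from -0.03 to 0.24, and for T from -0.04 to 0.15, from -0.04 to 0.15 and from -0.06 to 0.13. At 6 h they ranged from -0.28 to -0.01 for B and from -0.19 to -0.0017 for T.

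Counts of called genes depended on the settings, and the causes were not tested. Early against vehicle called 0 genes, but 1 without the filter, 11 with the muscle covariate, 60 with 7 group means, and 0 to 49 when 1 array was left out (49 without 1 h, 8 without 6 h, 3 without 3 h). Cr2 (-0.04) turned to 0.69 with the muscle covariate (limma adjusted p 0.0366), and Icos was also called there (0.59), where 0.101% of all genes were called higher. That covariate itself differed between the windows and vehicle, as given above. Late against vehicle called 0 genes, 1 with array weights, 1 with 7 group means, and 0 without any 1 array. The 60 genes of late against early became 32 with quantile normalization, 6 with all probe sets of a gene averaged, 2214 with array weights, 1067 with the muscle covariate and 95 with 7 group means. Leaving out 1 array gave 0 to 232, with 0 without 18 h or without 24 h, 8 without 3 h, 13 without 12 h, 37 without either vehicle array and 232 without 1 h. Without the second vehicle array, 4 of the 30 lymphocyte genes changed sign in late against vehicle. Apart from array weights and the muscle covariate, no alternative called a lymphocyte gene. With 1 array per time, an effect of E2 at a given hour and a difference between dissected samples cannot be told apart.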

Other observations

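Immunoglobulin genes did not all lie the same way. Iglv1, a lambda light chain variable gene, was -0.78 at 18 h and -0.54 at 24 h, and Ighm, the heavy chain of IgM, was -0.30 and -0.48. Igha, the heavy chain of IgA, was 0.48 and 0.09, and Jchain, which joins IgA and IgM into polymers, was -0.31 and -0.35. None was called by limma in late against vehicle, with adjusted p-values of 0.648 for Iglv1 and Igha, 0.721 for Ighm and 0.850 for Jchain.

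Germinal centre genes had 3 of 9 below both vehicle arrays at both 18 h and 24 h, beside 34.3% of all genes tested. Genes of natural killer and cytotoxic cells had 5 of 13, beside the same share. Only 4 of these 9 and 7 of these 13 genes passed the level filter, whereas the shares of all genes are over genes that passed it. The counts therefore include many genes of low level. Above both vehicle arrays lay 4 of 9 germinal centre genes and 3 of 13 natural killer and cytotoxic genes at 18 h (27.2% of all genes). At 24 h, 3 of 9 and 4 of 13 did (29.0%). Cd83, a surface protein of activated B cells and dendritic cells, was -0.51 at 18 h and -0.44 at 24 h, while S1pr2, a receptor that holds B cells in germinal centres, was 0.17 and 0.19. Ccl5, a chemokine of cytotoxic lymphocytes, was -0.41 and -0.30, and Klrd1, a receptor of natural killer cells, was -0.38 and -0.19. Neutrophil genes had 0 of 8 below both vehicle arrays at both times, and dendritic cell genes had 2 of 9, beside the same 34.3%. Of these, 6 of 8 and 7 of 9 passed the level filter.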
